A study of Danio rerio with 6 samples.

Results

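Genes of the oxygen-sensing pathway were followed in regrowing tail fins of larval zebrafish kept with or without the synthetic glucocorticoid beclomethasone. The set comprised genes for HIF prolyl hydroxylases, for HIF subunits and for proteins known to be induced by low oxygen. It was chosen by function and with the exposed-against-control differences of several of these genes already known, so the differences between the groups are given below as a description and carry no test of their own. Of 10 genes listed, 9 had a probe set annotated with that single symbol, which gave 10 of the 15502 probe sets compared. Pfkfb3 had 2 of these, and egln1a is not analysed here. Low-value filters were not applied, so all 10 entered the comparison.

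Larvae of the AB strain had their caudal fin cut off at 2 days post fertilization, and the regrowing tissue was taken 1 day later. Larvae of the exposed group swam in 1 uM beclomethasone. The control group is described as vehicle (DMSO) treated in the series text and in the exposed samples' protocol, whereas its own protocol mentions no vehicle. Each group had 3 pools of 150 fins, each hybridised to a separate Affymetrix zebrafish array. The labels say neither which clutches nor which days the pools were made from, and they name no batch, so the spread between pools may be partly technical and an effect of when each group was made cannot be told apart from the exposure. Pooling also hides differences between individual larvae. The deposited values are ratios per probe set, for most probe sets to the median over the 6 arrays, which was 1 for each of the 10 probe sets described. They show how pools differ for a gene and carry no level, so genes cannot be ranked by abundance, signal over background is unknown, and the presence of fin cell markers cannot be checked.

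Hypoxia-inducible factors (HIF) are pairs of an alpha subunit, such as those encoded by hif1ab and epas1b, and an ARNT subunit. When oxygen is plentiful, the prolyl hydroxylases encoded by the egln genes mark the alpha subunit for destruction through the VHL protein. When oxygen is scarce the alpha subunit persists, and HIF raises the transcription of genes for glucose use, blood vessel growth and matrix assembly, together with egln3, whose product restrains HIF in turn. The alpha subunits are governed largely by protein stability, so their mRNA need not follow HIF activity. Ddit4 is also a known target of the glucocorticoid receptor in mammals.

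Of the 9 genes, 5 stood well above control in exposed fins. The prolyl hydroxylase gene egln3, the mitochondrial gene mgarpb, the mTORC1 inhibitor gene ddit4, the glycolytic regulator gene pfkfb4b and the collagen prolyl hydroxylase gene p4ha1b were 2.16 to 21.0-fold higher, with no overlap between the groups. The alpha subunit genes hif1ab and epas1b, the blood vessel growth factor gene vegfaa and the glycolytic regulator gene pfkfb3 had differences between -0.27 and 0.19 on the log2 scale. In the fit over all probe sets, 5 of the 10 were called higher and 0 lower at an adjusted p under 0.05. Over the whole array 2.88% of probe sets were called higher and 3.24% lower. Groups did not overlap, with the exposed pools higher, for 6 of the 10, against 14.5% of all probe sets. Since these values helped to choose the genes, nothing is read from the counts.

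**Figure D1:**
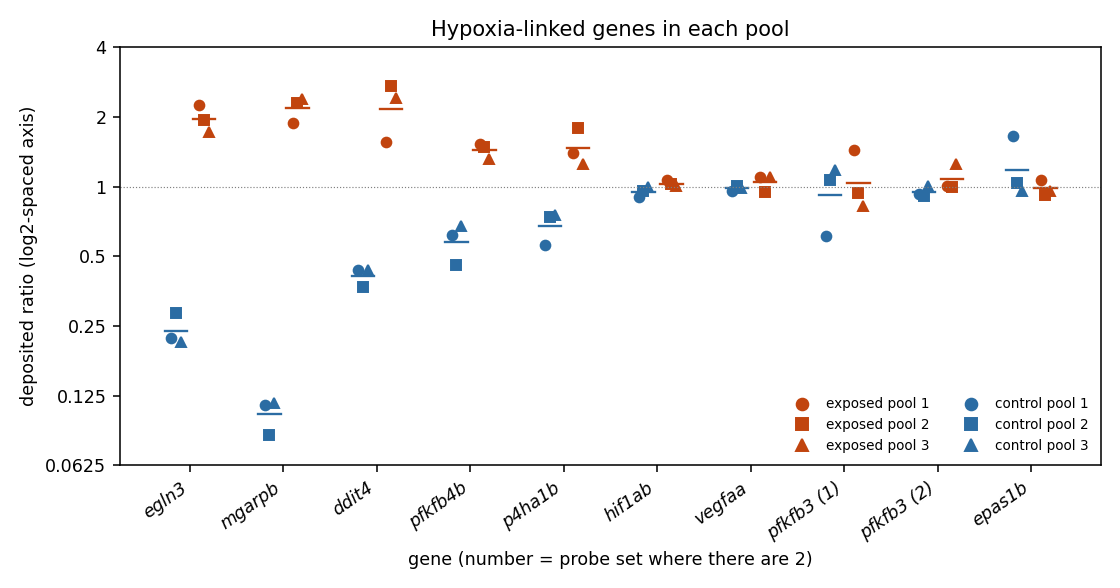
Deposited ratio (log2-spaced vertical axis, no unit) of each probe set in the 3 exposed (red) and 3 control (blue) pools, with bars at the geometric mean of each group. Egln3, mgarpb, ddit4, pfkfb4b and p4ha1b have exposed pools between 1.25 and 2.73 and control pools between 0.0848 and 0.752, while the groups of the other probe sets lie close together.

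The sensor gene egln3 encodes a HIF prolyl hydroxylase and is itself a hypoxia-induced gene in mammals. Exposed pools 1 to 3 had ratios of 2.26, 1.94 and 1.72, and control pools 1 to 3 had 0.222, 0.285 and 0.213. Every exposed pool lay at least 6.03-fold above every control pool, and pools of the same group differed by at most 1.33-fold. The log2 difference was 3.04 ± 0.16 (SE, n = 3 pools per group), or 8.23-fold, which ranked 13 among the 15502 probe sets from the highest rise down. It ran from 2.94 to 3.17 with any 1 array left out.

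Mgarpb is related to mammalian MGARP, a mitochondrial protein linked to the transport of mitochondria along the axon and induced by low oxygen in mammalian neurons. The exposed ratios were 1.88, 2.30 and 2.40 and the control ratios 0.114, 0.0848 and 0.117. It had the widest gap of the set, with the lowest exposed pool 16.1-fold above the highest control pool. The difference was 4.39 ± 0.16 (21.0-fold), rank 4 among all probe sets, and 4.24 to 4.50 with any 1 array left out. The spread between pools was 1.27-fold in exposed and 1.38-fold in control fins, small beside the gap.

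Ddit4, known as REDD1 in mammals, encodes an inhibitor of the growth kinase complex mTORC1. It had ratios of 1.56, 2.73 and 2.42 in exposed pools and 0.436, 0.367 and 0.438 in control pools. Exposed pool 1 was the low pool, 1.75-fold under pool 2, and still 3.57-fold above the highest control pool. The difference was 2.40 ± 0.21 (5.27-fold, rank 23) and ran from 2.24 to 2.64 with 1 array left out.

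Pfkfb4b and pfkfb3 encode enzymes that make and break down fructose 2,6-bisphosphate, the activator of phosphofructokinase in glycolysis. Pfkfb4b had exposed ratios of 1.52, 1.48 and 1.32 and control ratios of 0.620, 0.459 and 0.677. The difference was 1.32 ± 0.16 (2.49-fold, rank 191), and 1.15 to 1.43 with 1 array left out. Pfkfb3 did not separate the groups on either of its probe sets. The first had ratios of 1.44, 0.936 and 0.828 in exposed and 0.612, 1.06 and 1.18 in control pools. Its pools 1 stood apart in opposite directions, the exposed one high and the control one low, and the difference of 0.18 ± 0.29 turned to -0.06 without exposed pool 1, to -0.11 without control pool 1 and to -0.03 with array weights. The second had ratios of 1.01, 0.993 and 1.26 against 0.930, 0.909 and 1.01, a difference of 0.19 ± 0.12. The 95% intervals of these differences, -0.51 to 0.87 and -0.10 to 0.48, lay below the difference of pfkfb4b, although the difference between these genes was not tested.

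P4ha1b encodes the catalytic subunit of the enzyme that hydroxylates proline in collagen. Exposed ratios were 1.40, 1.80 and 1.25 and control ratios 0.559, 0.743 and 0.752. The lowest exposed pool was 1.66-fold above the highest control pool, a gap only somewhat wider than the 1.44-fold spread among the exposed pools themselves. The difference was 1.11 ± 0.18 (2.16-fold, rank 291). It ran from 0.96 to 1.23 with 1 array left out, and was no longer called without exposed pool 1, when 4 of the 10 probe sets were called.

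The alpha subunit gene hif1ab varied least of the set. Its ratios were 1.06, 1.02 and 1.01 in exposed and 0.906, 0.955 and 0.993 in control pools. The groups did not overlap, but exposed pool 3 and control pool 3 differed by only 1.02-fold. The difference of 0.12 ± 0.09 has a 95% interval of -0.10 to 0.34, so the mRNA difference was small beside those of egln3 or mgarpb. Epas1b, which encodes a HIF-2 alpha subunit, had ratios of 1.07, 0.920 and 0.961 in exposed and 1.66, 1.04 and 0.956 in control pools. Control pool 1 alone stood high, and the difference of -0.27 ± 0.21 shrank to -0.02 without it. Its 95% interval was -0.75 to 0.22.

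Vegfaa, the growth factor gene that drives blood vessel growth and a classical HIF target, had ratios of 1.104, 0.946 and 1.098 in exposed pools. The control ratios of 0.958, 1.01 and 0.991 lay within that range. The difference was 0.09 ± 0.10, with a 95% interval of -0.16 to 0.33. It was -0.03 with array weights, which were 5.41 for exposed pool 2 and 0.51 and 0.60 for exposed pools 1 and 3.

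**Figure D2:**
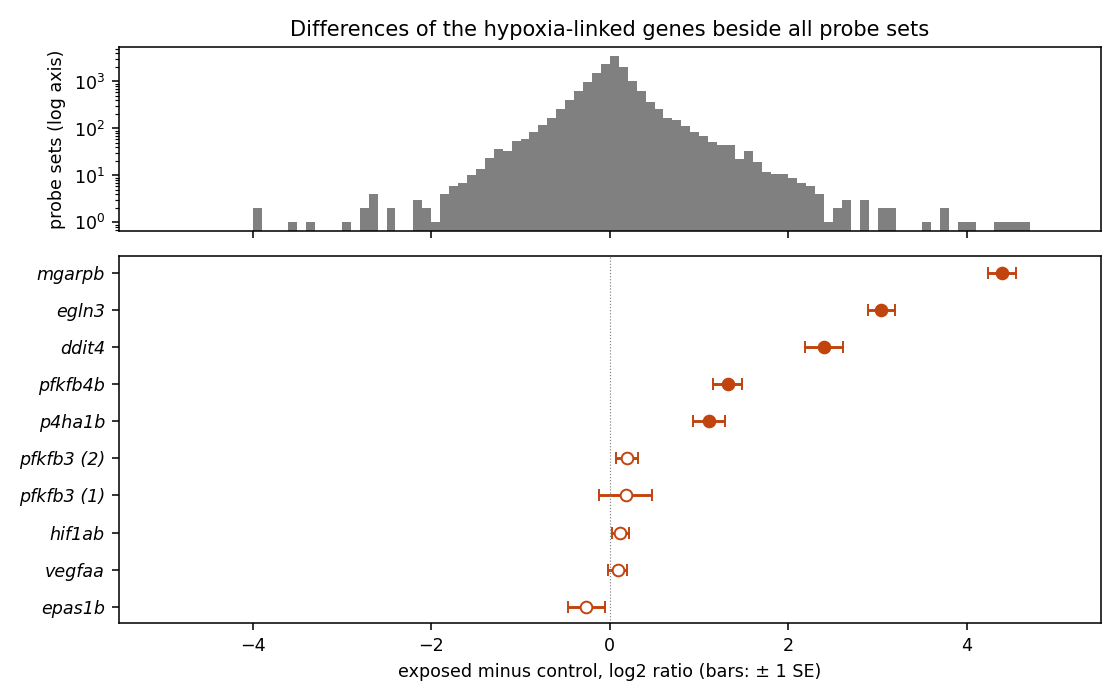
Upper panel, number of probe sets (log axis) by exposed minus control difference in log2 ratio, for all 15502. Lower panel, the same difference for each probe set described, with bars of 1 SE and filled points for those called; mgarpb at 4.39 and egln3 at 3.04 lie in the sparse right tail, and vegfaa at 0.09 and hif1ab at 0.12 in the centre.

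The order of the differences was mgarpb, egln3, ddit4, pfkfb4b and p4ha1b, followed by the 5 probe sets that were not called. Neighbours in this order were set side by side as the log2 ratio of the first minus that of the second within each array. These same differences set the order, so the direction within each pair was fixed in advance. The ranges are a description only. For mgarpb and egln3 the exposed pools gave -0.26 to 0.48 and the control pools -1.75 to -0.87, without overlap. For ddit4 and pfkfb4b it was 0.04 to 0.88 against -0.63 to -0.32, again without overlap. For egln3 and ddit4 the ranges of -0.49 to 0.53 and -1.04 to -0.37 overlapped, as did those of pfkfb4b and p4ha1b at -0.28 to 0.12 and -0.70 to 0.15. The last pair differed by 0.21, close to the standard error of each, so their order is not resolved.

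The spread of pools within a group is also a description, since the genes were chosen with earlier results of these data known. The pooled within-group SD of the log2 ratio was 0.212 for egln3, 0.224 for mgarpb, 0.221 for pfkfb4b, 0.256 for p4ha1b and 0.316 for ddit4, against a median of 0.165 over all probe sets. It was 0.0549 for hif1ab and 0.0934 for vegfaa, and 0.467 for the first probe set of pfkfb3. In all, 3 of the 10 lay below the array median. The genes that stood furthest apart between groups were thus not those with the tightest replicates.

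High and low pools were shared by some of these genes and not by others. Among exposed pools, egln3 was highest in pool 1 (0.21 above the group mean on the log2 scale), where mgarpb (-0.21) and ddit4 (-0.48) were lowest. Among control pools, egln3 was highest in pool 2 (0.26), where mgarpb (-0.30), ddit4 (-0.17) and pfkfb4b (-0.33) were lowest. Control pool 3 was the highest control pool for mgarpb (0.16), ddit4 (0.09), pfkfb4b (0.23) and p4ha1b (0.15), and the lowest for egln3 (-0.16). Exposed pool 2 was the highest exposed pool for ddit4 (0.33) and p4ha1b (0.30), and p4ha1b was lowest in control pool 1 (-0.28). With 3 pools per group these deviations are a description, and ratios of different probe sets share array-wide noise.

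**Figure D3:**
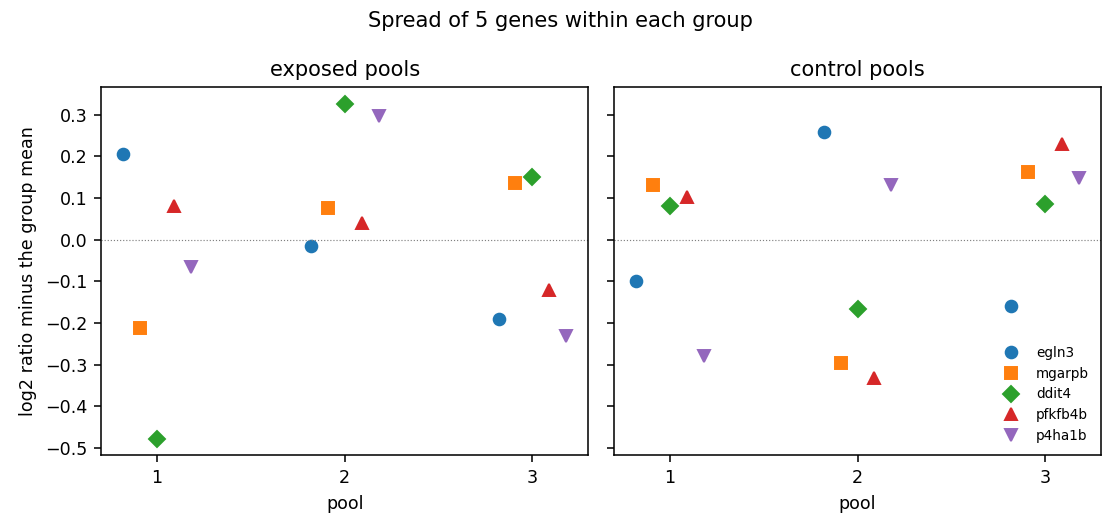
Deviation of the log2 ratio from the mean of its own group for egln3, mgarpb, ddit4, pfkfb4b and p4ha1b in each exposed (left) and control (right) pool. Egln3 lies above the mean in exposed pool 1 and control pool 2, where mgarpb and ddit4 lie below it.

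Related genes, taken from lists made by role, showed how far each family moved. Here a gene's value is the mean of its probe sets, and p-values are adjusted over all 8793 named genes, of which 4.24% were called higher and 4.58% lower. Mgarpa, the paralog of mgarpb, rose by 1.64 ± 0.15 (adjusted p = 0.00161), with ratios of 1.55, 1.43 and 1.62 in exposed and 0.399, 0.512 and 0.574 in control pools. It kept its call without any 1 array. Egln1b, another HIF prolyl hydroxylase gene, rose by 0.79 ± 0.15 (adjusted p = 0.0212), with control ratios of 0.712, 0.851 and 0.748 and exposed ratios of 1.61, 1.26 and 1.15, a smaller difference than that of egln3. Leaving out exposed pool 2, or control pool 3, ended its call. Hif1al, a further HIF alpha subunit gene, rose by 1.17 ± 0.10 (adjusted p = 0.00141) with ratios of 1.35, 1.41 and 1.37 against 0.628, 0.562 and 0.647, and kept its call without any 1 array. Epas1a, the paralog of epas1b, fell by 0.75 ± 0.16 on the log2 scale (adjusted p = 0.0330), with control ratios of 1.16, 1.13 and 1.32 and exposed ratios of 0.878, 0.709 and 0.576. Its 3 probe sets gave -1.14, -0.59 and -0.53, and leaving out pool 2 or pool 3 of either group ended its call. Alpha subunit genes therefore included a called rise, a called fall and, for hif1ab, epas1b and hif1al2 (0.18 ± 0.11), no call.

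**Figure D4:**
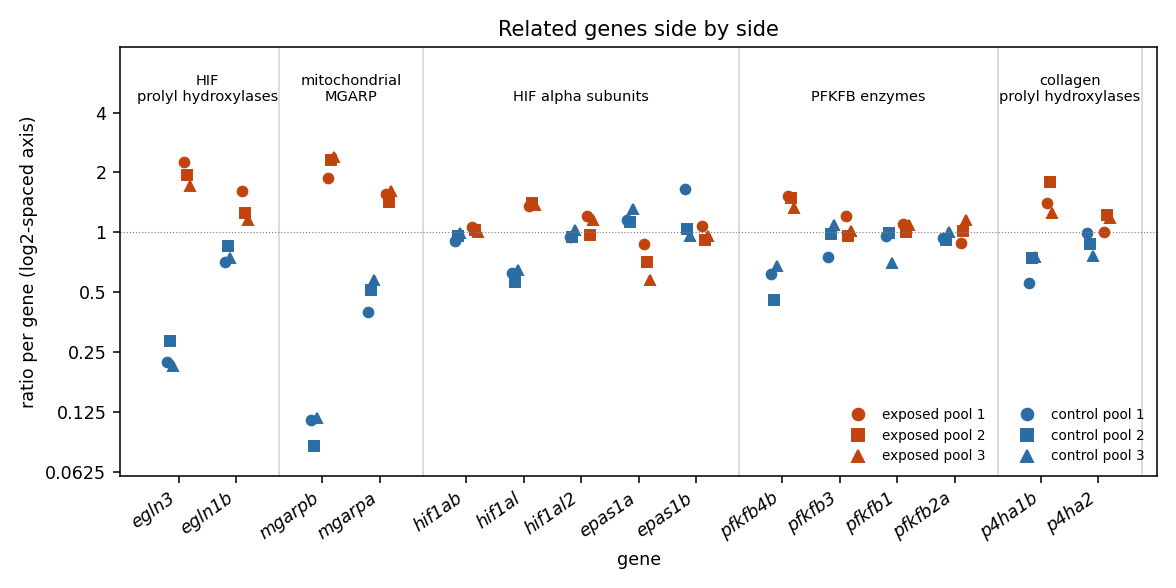
Ratio per gene (geometric mean of its probe sets, log2-spaced axis) in each exposed (red) and control (blue) pool, grouped by family. Both mgarp genes and both egln genes have all exposed pools above all control pools, while epas1a has the reverse order and hif1ab, pfkfb3 and epas1b stay near 1 apart from single pools.

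Among 18 measured genes of oxygen sensing and of HIF subunits and partners, 3 rose and 1 fell, with a list median of 0.02 equal to that of all genes, 0.02. Besides hif1al, egln1b and epas1a, the chaperone gene hsp90aa1.2 rose by 1.18 ± 0.20 (adjusted p = 0.0153), a call that ended when exposed pool 1 or 3 was left out. In the same list hif1an, whose enzyme hydroxylates an asparagine of the HIF alpha subunit, had a value of 0.01 ± 0.10 (adjusted p = 0.965) and arnt2 one of 0.32 ± 0.11 (adjusted p = 0.128). Leaving out any exposed pool, or control pool 3, left 2 rises, and leaving out pool 2 or pool 3 of either group left 0 falls.

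Genes of glucose uptake and glycolysis lay mostly on the higher side. Of 30 measured, 7 rose and 0 fell, 27 had a difference above 0, and the list median was 0.50. Over all 8793 genes, 4.24% were called higher and 4.58% lower, 4771 had a difference above 0, and the median was 0.02. At an unadjusted p under 0.05 in limma, 12 of the 30 were higher and 0 lower, against 1116 and 1005 of all genes. The smallest p-values belonged to the phosphoglycerate mutase gene pgam1a (1.03 ± 0.17, adjusted p = 0.0162), the hexokinase gene hk1 (0.56 ± 0.10, adjusted p = 0.0164), the enolase gene eno3 (0.67 ± 0.12, adjusted p = 0.0214) and pdk2b (1.16 ± 0.22, adjusted p = 0.0222), which encodes a kinase that holds back pyruvate dehydrogenase. Probe sets of hk1 disagreed, with -0.02, 0.80 and 0.91. Leaving out any exposed pool, or control pool 3, left 1 rise. In these omissions the rises over all probe sets also fell, from 446 to between 176 and 199. Ldha, which makes lactate and is a textbook HIF target, had a value of 0.67 ± 0.35 (adjusted p = 0.309) and pgk1 one of 0.40 ± 0.18 (adjusted p = 0.232).

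Skeletal muscle markers were also higher in exposed fins, and several of the glycolytic genes, eno3 among them, are strongly expressed in muscle. For 17 muscle genes the exposed pools 1 to 3 had list medians of 0.71, 0.09 and 0.06. The control pools 1 to 3 had -1.75, -0.03 and -1.13. Differences were above 0 for 17 of 17, against 4771 of all 8793 genes, and 1 was called. At an unadjusted p under 0.05 in limma, 14 were higher and 0 lower, against 1116 and 1005 of the 8793. The glycolysis list had medians of 0.22, 0.11 and 0.08 against -0.49, -0.07 and -0.37, so the control pools had the same order in both lists. That order was not particular to muscle and glycolysis. It also held in the vascular target, endothelial, erythrocyte, notochord and cell cycle lists described below, while the remaining lists had other orders. The part of muscle in the glycolysis result was not tested. In bulk tissue, more cells of a type and more RNA per cell cannot be told apart. For the genes described first, control pool 2 had a muscle median near those of exposed pools 2 and 3, and in that pool mgarpb was at 0.0848, ddit4 at 0.367 and pfkfb4b at 0.459, the lowest control value of each. In the same pool egln3, at 0.285, had its highest control value and p4ha1b, at 0.743, its middle one. The part of muscle in the differences of these genes was not tested.

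Of 15 measured HIF targets of vessels and blood, 4 rose and 0 fell, with a median of 0.33. Over all 8793 genes, 4.24% were called higher and 4.58% lower, with a median of 0.02. At an unadjusted p under 0.05 in limma, 7 of the 15 were higher and 0 lower, against 1116 and 1005 of all genes. Angpt2b, which encodes a ligand of the endothelial receptor Tie2, rose most, with ratios of 1.54, 1.99 and 1.44 in exposed against 0.505, 0.429 and 0.556 in control pools (1.73 ± 0.16, adjusted p = 0.00161). Angptl4, which encodes an inhibitor of lipoprotein lipase, rose by 0.81 ± 0.11 (adjusted p = 0.00825). Both kept their calls without any 1 array. The chemokine gene cxcl12a (0.92 ± 0.16, adjusted p = 0.0190) and its receptor gene cxcr4b (0.73 ± 0.12, adjusted p = 0.0123), which is also a leukocyte marker, rose too. Cxcl12a was not called once any exposed pool, or control pool 3, was left out, nor was cxcr4b once exposed pool 1 or 2 was, and the list then had 2 rises without either of those pools. For the erythropoietin gene epoa the difference was 0.06 ± 0.09 (adjusted p = 0.748) and for the carbonic anhydrase gene ca9 it was -0.01 ± 0.11 (adjusted p = 0.968). Endothelial markers, 5 measured and 1 called higher, had exposed medians of 0.04 to 0.23 and control medians of -0.65 to -0.07. At an unadjusted p under 0.05 in limma, 4 of these 5 were higher and 0 lower. Erythrocyte markers, 10 measured and 0 called, had exposed medians of 0.04 to 0.12 and control medians of -0.69 to 0.04. Of these 10, 3 were higher and 1 lower at that unadjusted threshold. The endothelial and vascular lists share genes, tek and flt4 among them, so their medians are not independent of each other. The share of endothelial cells and erythrocytes in the vascular result was not tested.

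Of 25 measured stress and mitochondrial HIF targets, 2 rose and 1 fell, with a median of 0.08. Over all genes 4.24% were called higher and 4.58% lower, so counts this small are not read as a result about the list. At an unadjusted p under 0.05 in limma, 7 of the 25 were higher and 1 lower, against 1116 and 1005 of all 8793 genes. Besides mgarpa, the mitochondrial gene higd1a rose by 0.54 ± 0.12 (adjusted p = 0.0410), a call that ended on leaving out any array but control pool 2, and also under quantile normalization (adjusted p = 0.0550) and with arrays centred on their medians (adjusted p = 0.0504). Bhlhe40, a transcriptional repressor gene induced by low oxygen in mammals, fell by 0.97 ± 0.13 on the log2 scale (adjusted p = 0.00632), with control ratios of 1.32, 1.24 and 1.62 and exposed ratios of 0.763, 0.694 and 0.669. That fall was called without any 1 array. The mitophagy receptor gene bnip3 had a value of 0.14 ± 0.17 (adjusted p = 0.697) and ndrg1a one of 0.51 ± 0.26 (adjusted p = 0.291). Leaving out any exposed pool, or control pool 3, left 1 rise, and leaving out control pool 1 gave 3. Either scaling also left 1 rise, while robust fitting gave 4 and array weights 5.

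Lists of partners around the remaining genes of the set are given as a description. Over all genes 4.24% were called higher and 4.58% lower, so few calls are the rule for lists this short. Nothing is read from their small counts. At an unadjusted p under 0.05 in limma, 1116 of all 8793 genes were higher and 1005 lower. None of 9 measured collagen modifying enzymes and chaperones passed in limma (unadjusted p under 0.05 for 1 on the higher and 0 on the lower side), and 2 rose without control pool 1. The prolyl hydroxylase gene p4ha2 had a value of 0.37 ± 0.13 (adjusted p = 0.142). Of 23 measured genes of the mTORC1 pathway, on which the product of ddit4 acts, 0 rose (2 at an unadjusted p under 0.05, and 2 called without control pool 1) and 1 fell. That gene was sesn3, which encodes another inhibitor of mTORC1, at -0.65 ± 0.13 (adjusted p = 0.0262), a call that ended when any exposed pool, or control pool 2, was left out. Mtor itself had a value of -0.07 ± 0.10 (adjusted p = 0.768). None of 5 measured partners of mitochondrial transport was called in limma (unadjusted p under 0.05 for 2 on the higher and 0 on the lower side).

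Over these 7 lists together, 16 of 125 distinct genes rose and 3 fell, with a median of 0.14. Over all genes 4.24% were called higher and 4.58% lower, with a median of 0.02. In the 7 lists the rises numbered 6 without exposed pool 1 or 2, 7 without exposed pool 3 or control pool 3, and 22 without control pool 1. The falls numbered 1 without exposed pool 2 or 3 or control pool 2. A list of glucocorticoid receptor targets was set beside these lists because ddit4 is such a target in mammals. As drawn up, it also held the receptor genes nr3c1 and nr3c2 and the corepressor gene ncor1. Of its 23 measured genes, 11 rose and 1 fell, with a median of 0.52. Its rises numbered 8 without any 1 exposed pool and 9 without control pool 3. The smallest p-values of this list belonged to hsd11b2 (4.54 ± 0.18), glula (1.84 ± 0.15), fkbp5 (3.13 ± 0.27) and dusp1 (2.31 ± 0.21). Its fall was that of cisha (-1.36 ± 0.25), which was not called without exposed pool 2 or 3. Ddit4 at 2.40 lay between fkbp5 and dusp1 in size, which is a description only. The part of the glucocorticoid receptor in the difference of ddit4 was not tested.

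Genes with a pattern most like egln3, mgarpb and ddit4 were sought among 10785 other probe sets with a single symbol, by Pearson's r of the log2 ratio over the 6 arrays. This measure is dominated by the difference between the groups, and 179, 155 and 110 probe sets had an r above 0.95 with egln3, mgarpb and ddit4. Closest to egln3 were a probe set of the hexokinase gene hk1 (r = 0.998), cfap210 (0.997), the mitochondrial complex I gene ndufv2 (0.995), the urea transporter gene slc14a2 (0.994) and desi1a (0.994). Closest to mgarpb were the HIF alpha subunit gene hif1al (0.998), bcl2l13 (0.998), slc14a2 (0.996), ube2q1 (0.996) and cdr2l (0.996). Closest to ddit4 were cdr2l (0.996), the steroid 5-alpha-reductase gene srd5a2a (0.996), tcnbb (0.995), stk40 (0.991) and uevld (0.990). Slc14a2 was thus near egln3 and mgarpb, and cdr2l near mgarpb and ddit4, while their differences of 4.42 and 0.89 show that r ignores size.

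Some marker lists of other cell types and states differed between the groups, whereas the median ratio of whole arrays overlapped, with exposed pools at 0.955 to 0.998 and control pools at 0.963 to 0.977. Cell cycle markers had exposed medians of -0.79 to -0.33 and control medians of 0.24 to 0.37, with 19 of 26 called lower and 0 higher. Epidermal markers had -0.39 to -0.22 and 0.06 to 0.31, with 9 of 20 called lower and 1 higher. The shares called over all genes were 4.58% lower and 4.24% higher. Before adjustment, 21 cell cycle markers passed 0.05 in limma on the lower side and 0 on the higher. For epidermal markers these counts were 12 and 2. Leukocyte markers lay mostly on the lower side, with 3 of 13 differences above 0 and a median of -0.18, although 2 were called higher and 0 lower (unadjusted p under 0.05 for 2 on the higher and 4 on the lower side). Their pool medians overlapped, at -0.11 to -0.01 in exposed and -0.22 to 0.45 in control fins. Notochord markers, 1 of 8 called higher, had exposed medians of -0.01 to 0.10 and control medians of -0.43 to -0.14. At an unadjusted p under 0.05 in limma, 4 were higher and 1 lower. Of all 8793 genes, 1116 were higher and 1005 lower at that threshold. No value of these lists is a level, so none can be called absent, and their part in the differences of egln3, mgarpb, ddit4, pfkfb4b and p4ha1b was not tested.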

How the data were processed

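Affymetrix zebrafish arrays were hybridised with RNA labelled by a 2-cycle kit, per the labels' protocols. Probe intensities had gone through GCRMA, per the submitters' processing notes. Values deposited by the authors were read as a linear ratio per probe set, since 12601 of 15617 probe sets had a median of 1 over the 6 arrays (tolerance 1e-06) and 3015 a lower one. The divisor was read from the values alone, as no header or label records it. All 115 control probe sets were left out. Log2 ratios, without pseudocount or filter, entered limma 3.58.1 under R 4.3.3, with group as the only term and an empirical Bayes fit. On simulated data with independent noise, this fit recovered 20% of 1.5-fold, 68% of 2-fold and 90% of 4-fold rises. It made 2 false calls among 139. Genes without a call may therefore still differ. Two-sided p-values were adjusted by Benjamini-Hochberg over 15502 probe sets or 8793 genes, with a threshold of 0.05. The small number of arrays limits the precision. Symbols came from the array annotation, which gave 1 symbol for 10795 probe sets, and were updated by Entrez number. Lists were matched by exact symbol. The members, lists and tests were chosen with earlier results of these data known. Named were every member, every called gene of a list or the 4 of smallest p per direction, and the 5 most alike probe sets for egln3, mgarpb and ddit4. List genes named without a call were chosen for their role after their values were seen. The alternatives tried are listed in the closing section.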

Additional observations from a re-analysis of the deposited data

How the results depend on the processing

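Alternatives were quantile normalization, arrays centred on their medians, robust fitting with a variance trend, weighting of arrays, a replicate block, a pseudocount of 1, omission of probe sets whose median lay below 1, genes as the unit, lists counted by probe set, and omission of each array. The 5 members called higher kept direction and call throughout, except p4ha1b without exposed pool 1 (4 to 5 members called with 1 array left out). The members were chosen with earlier results of these same arrays known, so their persistence is a description only. A pseudocount of 1 shrinks differences by construction, that of mgarpb to 1.53 and of egln3 to 1.26. Over all probe sets, 948 were called, 446 higher and 502 lower. Array weights gave 2177 (1073 and 1104), and 1 array left out 367 to 1233 (176 to 565 higher, 180 to 668 lower). The weights were 5.41 for exposed pool 2 and 0.51 and 0.60 for exposed pools 1 and 3, so weighted differences lean on exposed pool 2. The replicate block gave 436 (200 and 236), and 11 genes of the 7 lists against 19, of which 9 higher against 16. By list the block left 2 rises in glycolysis and 1 among stress and mitochondrial targets (higd1a lost). Among oxygen sensors it left 2 rises (egln1b lost) and 0 falls (epas1a lost). Array weights gave 1 rise among collagen enzymes and 2 in the mTORC1 pathway, where a pseudocount of 1 gave 1. Deviations of same-numbered pools had r = -0.21, -0.04 and 0.11 for numbers 1 to 3. Differently numbered pools had r from -0.25 to 0.26. With 3 pools per group these values cannot tell whether the numbers pair the pools. With 1 array left out, 7 to 25 list genes were called, 6 to 22 higher and 1 to 3 lower. The causes were not tested. Signal over background is unknown for every probe set, and 3 pools per group limit what can be called.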
